A study of Mus musculus with 45 samples.

Results

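The transcripts described here are those of 9 transcription factors that specify or maintain the trophoblast lineage: Eomes, Cdx2, Gata2, Gata3, Elf5, Tfap2c, Hand1, Tead4 and Ets2. They were selected by name from the 55401 genes of each deposited gene table, and all 9 were found once in every table. No measured value entered the selection. The RNA-seq series holds 45 libraries of mouse embryonic stem cells (mESCs) in 15 groups of 3.

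In the time course, the washout and the sorting experiment all cells carried the EHMT2-dTAG allele, a degron fused to both copies of endogenous Ehmt2, so that the degrader dTAG-13 removes the EHMT2 protein, a methyltransferase that writes H3K9me2. The time course compared DMSO and dTAG-13 at 24 h and at 7 d. The washout had a group kept in DMSO for 15 d, another kept in dTAG-13 as long, and a Recovery group that was released from the degrader after 7 d and grown for 8 d more. In both experiments the 3 libraries of a group came from 3 clones. For sorting, EHMT2-dTAG cells with a MERVL-GFP reporter, which lights up in 2-cell-like cells, received DMSO or dTAG-13 for 72 h and were divided into GFP- cells (mESC) and GFP+ cells (2CLC). These sorted libraries are numbered as replicates and name no clone, and the treatment was done in triplicate per the study's methods. The fourth experiment used J1 cells without the degron, either wild-type (WT) or knocked out for Dppa4 (KO), 3 clonal lines each per the study's methods, given DMSO or UNC0638 for 48 h. UNC0638 blocks the catalytic activity of EHMT1 and EHMT2, and DPPA4 is a nuclear factor that mESCs need in order to enter the 2-cell-like state. All cells grew on fibroblast feeders, and every library is a bulk sample, in which fewer cells of a type and less RNA per cell cannot be told apart.

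Trophoblast is the first lineage to separate from the embryo proper and later forms the placenta. TEAD4, the DNA-binding partner of the Hippo effector YAP, switches on Cdx2 and acts beside GATA3 in the outer cells of the morula. EOMES, ELF5, TFAP2C and ETS2 keep trophoblast stem cells dividing, whereas HAND1 drives giant cell formation and GATA2 takes part in trophoblast differentiation. Several of these factors are also used elsewhere: Tfap2c is active in naive mESCs and germ cells, Hand1 and Eomes in mesoderm. The ability to make trophoblast is one of the traits for which 2-cell-like cells are studied.

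The genes are scattered over the genome (GRCm38). Gata3 (2:9857078-9890034, minus strand), Elf5 (2:103411688-103450989, plus) and Tfap2c (2:172549593-172558622, plus) share chromosome 2 and lie far apart on it. Gata2 (6:88193891-88207032, plus) and Tead4 (6:128224288-128300823, minus) are both on chromosome 6. Cdx2 lies at 5:147300805-147307270 (minus), Eomes at 9:118478212-118486132 (plus), Hand1 at 11:57828705-57832818 (minus) and Ets2 at 16:95702075-95721051 (plus).

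Of the 9 genes, 6 have promoters in the RefSeq table for GRCm38.p6, with 8 starts in all. Tfap2c, Hand1 and Tead4 have no entry. The promoters of Gata2, Cdx2 and Eomes are shown because each transcript has a contrast described below (24 h of EHMT2 depletion, Dppa4 KO, and sorted mESC) and because they differ in CpG content. Sequences run 5′ to 3′ on the gene's own strand up to the RefSeq start or the first annotated exon, and capitals mark CG dinucleotides, the sites of DNA methylation. The Gata2 stretch spans chr6:88193641-88193890 (plus strand, 22 CG), the Cdx2 stretch chr5:147307271-147307499 (minus strand, 11 CG) and the Eomes stretch chr9:118477939-118478188 (plus strand, 8 CG).
Gata2: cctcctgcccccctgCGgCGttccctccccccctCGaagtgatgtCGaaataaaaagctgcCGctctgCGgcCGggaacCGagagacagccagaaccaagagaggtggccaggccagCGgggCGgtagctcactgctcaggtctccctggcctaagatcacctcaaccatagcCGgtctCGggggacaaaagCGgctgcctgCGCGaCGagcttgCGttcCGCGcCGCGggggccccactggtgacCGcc
Cdx2: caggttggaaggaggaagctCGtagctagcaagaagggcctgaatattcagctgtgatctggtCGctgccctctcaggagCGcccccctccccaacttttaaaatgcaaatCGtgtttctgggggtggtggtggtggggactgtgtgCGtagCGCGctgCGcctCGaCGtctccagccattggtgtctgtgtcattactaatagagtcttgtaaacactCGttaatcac
Eomes: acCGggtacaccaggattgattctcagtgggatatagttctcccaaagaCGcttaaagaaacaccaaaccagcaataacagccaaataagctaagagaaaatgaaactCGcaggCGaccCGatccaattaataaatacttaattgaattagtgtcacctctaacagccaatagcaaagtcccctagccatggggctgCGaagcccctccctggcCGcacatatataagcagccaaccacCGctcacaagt

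In the 250 bases before the start, 32851 promoters of the table held a median of 6 CG dinucleotides (lower quartile 2, upper quartile 16). The starts of Ets2 (25), Gata2 (22 and 24) and Gata3 (19) were above the upper quartile. Cdx2 (13) and Eomes (8) lay between the median and the upper quartile, and the 2 starts of Elf5 held 2 and 8. The TEAD motif CATTCC (or GGAATG) was found at 1 start of Elf5 and 1 of Gata2, and 12.6% of all promoters held it. The GATA motif AGATAA (or TTATCT), which 10.0% of promoters held, was found at none of the 8 starts. The palindromic AP-2 motif GCCNNNGGC, present in 13.7% of promoters, occurred 3 times before Gata3, once before Cdx2 and once before the second start of Gata2. The ETS motif CCGGAA (or TTCCGG), in 12.0% of promoters, was found only before Gata3 among these starts. Each match describes letters in this window and was not tested for binding.

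For the first 3 experiments only the authors' means over each group are used here, in counts divided by DESeq2 size factors (normalized counts), so these values carry no spread and no test. A difference between such means is given as the log2 ratio of the means, each plus 1, and a gene is said to be past 2-fold where that ratio is at least 1 in size and the mean of at least 1 group is 10 or more. Per-library values exist for the Dppa4 experiment, with 8399885 to 12710949 reads in genes per library. Dppa4 had 0 reads in all 6 KO libraries and 700.4 to 920 normalized counts in the 6 WT libraries. The Ehmt2 transcript checks nothing in the degron cells, because the degrader acts on protein, and its means were 616 with DMSO and 609 with dTAG-13 at 24 h. The 2CLC gate held its label: all 9 markers of 2-cell-like cells were past 2-fold higher in 2CLC than in mESC with DMSO, with summed means of 133727 and 767. KO replicate 3 with UNC0638 stood further from its 2 partners (chi-square per gene 55.5 and 40.8) than any other pair of replicates stood apart (12.2 to 26.7).

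These factors covered a wide range of levels in mESCs. Levels of different genes are compared per kb of exon. Tfap2c was the highest of the 9 in 12 of the 15 groups, Ets2 in 2 and Tead4 in 1. In the time course with DMSO for 24 h, Tfap2c stood at 263 normalized counts per kb, Tead4 at 213.6, Ets2 at 81.0, Eomes at 36.1 and Gata2 at 14.4. Hand1 (3.01), Gata3, Cdx2 (0.474) and Elf5 (0.172) formed a low tier. Tfap2c, Tead4, Ets2, Eomes and Gata2 had a mean of at least 10 normalized counts in all 15 groups, whereas Hand1, Gata3 and Cdx2 each reached it in 4 and Elf5 in 0. Elf5, which is shut by promoter methylation in embryonic cells and marks committed trophoblast stem cells, never passed a mean of 4.81 normalized counts (24 h of dTAG-13).

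**Figure D1:**
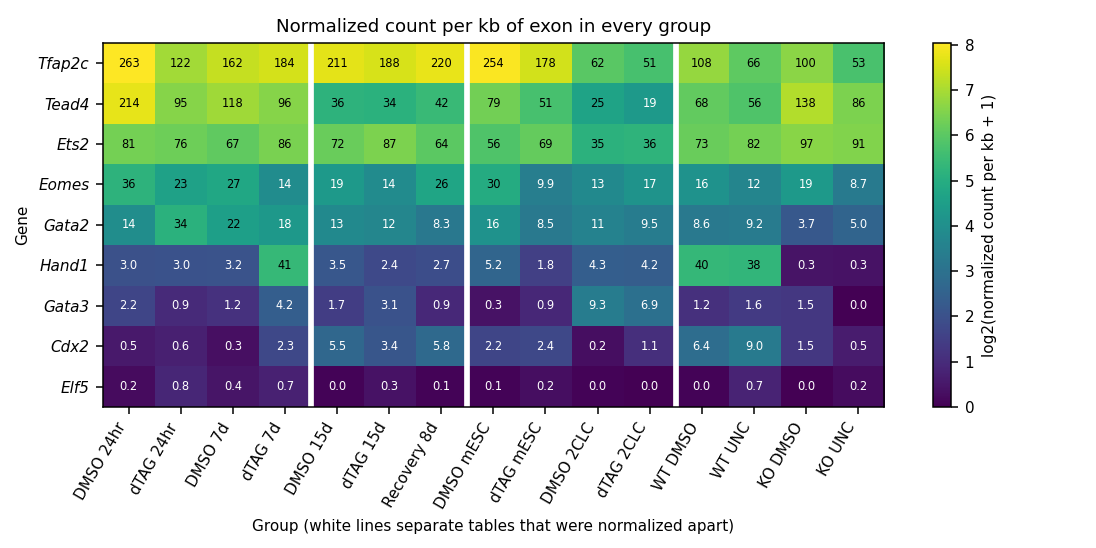
Normalized count per kb of exon of the 9 genes (rows) in the 15 groups (columns), as authors' group means for the first 11 columns and as means of 3 libraries for the last 4. Colour gives log2 of the value plus 1, and values should be compared across columns only within the blocks set apart by white lines. Tfap2c, Tead4 and Ets2 fill the upper rows in every group, and Hand1 reaches 41.1 with 7 d of dTAG-13 and 39.8 in WT cells with DMSO against 0.340 in KO cells with DMSO.

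In the KO groups the order differed. In WT cells with DMSO the levels per kb were 108 ± 41.8 for Tfap2c, 73.4 ± 26.2 for Ets2, 67.6 ± 32.4 for Tead4, 39.8 ± 27.2 for Hand1 and 16.1 ± 1.71 for Eomes (SD, n = 3 each). The first 4 of these lie within each other's spread. In KO cells with DMSO Tead4 came first at 138 ± 26.1, above Tfap2c at 100.3 ± 45.5 and Ets2 at 97.1 ± 20.4, and Hand1 was last but one at 0.340 ± 0.589 (SD, n = 3 each). Again the first 3 overlap in their spread. With UNC0638 Ets2 came first in both WT (82.1 ± 24.8) and KO cells (91.4 ± 25.4, SD, n = 3 each).

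At 24 h of EHMT2 depletion Tead4 and Tfap2c were past 2-fold lower and Gata2 was past 2-fold higher. Tead4, the most upstream member, had a mean of 769 normalized counts with DMSO and 341 with dTAG-13, a log2 ratio of -1.17. Tfap2c went from 968 to 447 (log2 ratio -1.11). Gata2, by contrast, went from 77.7 to 185 (log2 ratio 1.24). These 3 of the 5 members that passed the minimum were past 2-fold, where 5.70% of 18451 genes were. The median log2 ratio over all genes was 0.01.

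The 24 h DMSO group was itself high for both genes that were lower. The DMSO means at 7 d were 423 for Tead4 and 596 for Tfap2c, log2 ratios of -0.86 and -0.70 over DMSO at 24 h, and 0 of 5 members were past 2-fold between the DMSO groups, where 2.36% of genes were. The 341 of Tead4 at 24 h of dTAG-13 lay close to the 345 at 7 d of dTAG-13 and below the 423 of DMSO at 7 d. Eomes had means of 150.0 and 97.4 at 24 h (log2 ratio -0.62), and Ets2 of 468 and 441 (-0.08). Markers of other cells moved at 24 h too. All 9 markers of 2-cell-like cells were past 2-fold higher with dTAG-13, and their summed mean was 176.8 with DMSO and 2256 with dTAG-13. Feeder markers summed to 1758 and 2206, with Dcn at 20.5 and 1.13, and Dcn was also at 0.550 with DMSO at 7 d. Endoderm markers summed to 275 and 482, with Gata6, a relative of Gata2, at 23.8 and 52.2. Their part in the Tead4, Tfap2c and Gata2 values was not tested.

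At 7 d of EHMT2 depletion the genes past 2-fold were of the low tier. Hand1, the giant cell regulator, had a mean of 6.31 normalized counts with DMSO and 82.1 with dTAG-13, a log2 ratio of 3.51. Gata3 went from 4.77 to 16.9 (log2 ratio 1.63). These 2 of 7 members were past 2-fold, where 9.95% of 18602 genes were, but both passed the minimum only through the dTAG-13 group, so nothing is read from this count. Cdx2 was at 0.571 and 5.31, below the minimum in both groups. Tead4 (log2 ratio -0.30), Tfap2c (0.18), Gata2 (-0.26) and Ets2 (0.36) were within 2-fold at this time, and Eomes went from 112 to 59.0 (-0.91). Whether the Hand1 mean rests on 1 clone or on all 3 cannot be told from a mean.

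Some other trophoblast genes differed at 7 d beside Hand1 and Gata3, to be read against the same 9.95% of all genes. Of 15 placental genes, 5 passed the minimum and 2 were past 2-fold higher. These were Plac1, a placental membrane protein, with means of 0.550 and 42.3, and the imprinted Peg10, needed for placenta formation, with 1887 and 4430. Plac1 passed the minimum only through the dTAG-13 group, so nothing is read from this count. Among 12 structural genes of the trophectoderm, the keratins Krt8 (224 and 670) and Krt18 (217 and 590) were past 2-fold higher and none was lower. Of 15 other transcription factors of trophoblast stem cells, 13 passed the minimum, and 1 was past 2-fold higher and 2 lower. The 2 lower were Dlx3 (35.6 and 13.7) and Ascl2 (76.1 and 28.0). Of 15 Hippo pathway genes none was past 2-fold. Median log2 ratios were 0.12 for the placental list and 0.31 for the structural list, against 0.01 over all genes.

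Markers of other cells also moved at 7 d. All 9 markers of 2-cell-like cells were past 2-fold higher with dTAG-13, with summed means of 290.9 and 6862. The summed mean of 8 fibroblast feeder markers was 1494 with DMSO and 2198 with dTAG-13, with 1 of 8 at 0 with DMSO. That of 8 early mesoderm markers was 60.3 and 43.3, with Tbx6 at 33.9 and 8.37 and Kdr at 4.44 and 14.8. Their part in the Hand1 and Gata3 values was not tested.

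With dTAG-13 for 15 d, 0 of the 7 members that passed the minimum were past 2-fold. Of 17869 genes 6.33% were, so nothing is read from this count. Hand1 had a mean of 7.06 with DMSO and 4.79 with dTAG-13 in this experiment, below the minimum in both groups. That was unlike 7 d of the time course, which used the same 3 clone names and was normalized apart. Gata3 stood at 6.89 and 12.4 (log2 ratio 0.76), Cdx2 at 12.4 and 7.77 (-0.61) and Eomes at 80.7 and 56.6 (-0.50). Tfap2c, Tead4, Ets2 and Gata2 had log2 ratios between -0.16 and 0.26.

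After washout, 0 of the 6 members that passed the minimum were past 2-fold from DMSO for 15 d. Of 17365 genes 2.85% were, so nothing is read from this count. The log2 ratios of these members lay between -0.65 and 0.40, and no spread is known. Gata3, at 3.51 normalized counts after Recovery against 12.4 with continuous dTAG-13, was past 2-fold lower (log2 ratio -1.57). It was 1 of 7 members, where 8.42% of 17936 genes were, and passed the minimum only through the dTAG-13 group. Eomes was at 106 after Recovery and 56.6 with dTAG-13 (0.90), and Gata2, at 44.9, was the member farthest below its DMSO mean among those that passed the minimum (-0.65). Feeder markers summed to 2595 with DMSO, 3479 with dTAG-13 and 1043 after Recovery, and their part in these values was not tested.

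**Figure D2:**
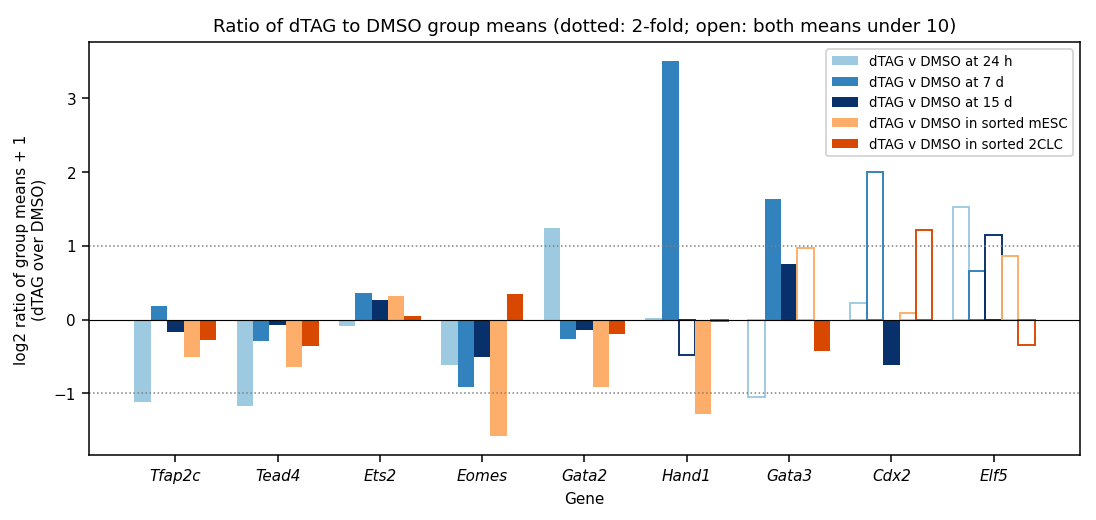
Log2 ratio of dTAG to DMSO group means (each plus 1) for the 9 genes at 24 h, 7 d and 15 d and in sorted mESC and 2CLC. Dotted lines mark 2-fold, and open bars are genes whose means were under 10 in both groups. The Hand1 bar at 7 d (3.51) is the tallest, and the Eomes bars of mESC (-1.59) and 2CLC (0.35) point in opposite directions.

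Some of these genes were past 2-fold between sorted 2CLC and mESC before EHMT2 was touched. With DMSO, Gata3 had a mean of 1.25 normalized counts in mESC and 37.2 in 2CLC, a log2 ratio of 4.08. Tfap2c was lower in 2CLC, at 228 against 934 (-2.03), as were Tead4, at 88.7 against 286 (-1.68), and Eomes, at 53.9 against 125 (-1.20). These 4 of 7 members were past 2-fold, where 26.4% of 18303 genes were, and Gata3 passed the minimum only through 2CLC. Ets2 (-0.65), Gata2 (-0.57) and Hand1 (-0.26) were within 2-fold. Cdx2 was at 5.00 in mESC and 0.514 in 2CLC and did not reach the minimum, with its lower mean where Gata3 was higher.

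With dTAG-13, Gata3, Tfap2c and Tead4 were past 2-fold again between 2CLC and mESC. The means of Gata3 were 27.3 in 2CLC and 3.41 in mESC (log2 ratio 2.68), Tfap2c at 189 and 657 (-1.79) and Tead4 at 68.7 and 182 (-1.40). That was 3 of 6 members, where 23.6% of 18244 genes were. Gata3 passed the minimum only through 2CLC, so nothing is read from this count. Eomes turned round, with 68.8 in 2CLC and 41.1 in mESC (0.73). Scaling the group means to the same sum, before the 1 is added, shifts log2 ratios of 2CLC over mESC down by 0.15 with DMSO and by 0.40 with dTAG-13, and those of dTAG-13 over DMSO in 2CLC by 0.24. The shift is smaller for low genes, and Gata3 went from 4.08 to 3.99 and from 2.68 to 2.32. The genes named here as past 2-fold stayed so, and with dTAG-13 Ets2 joined them, going from -0.92 to -1.33.

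**Figure D3:**
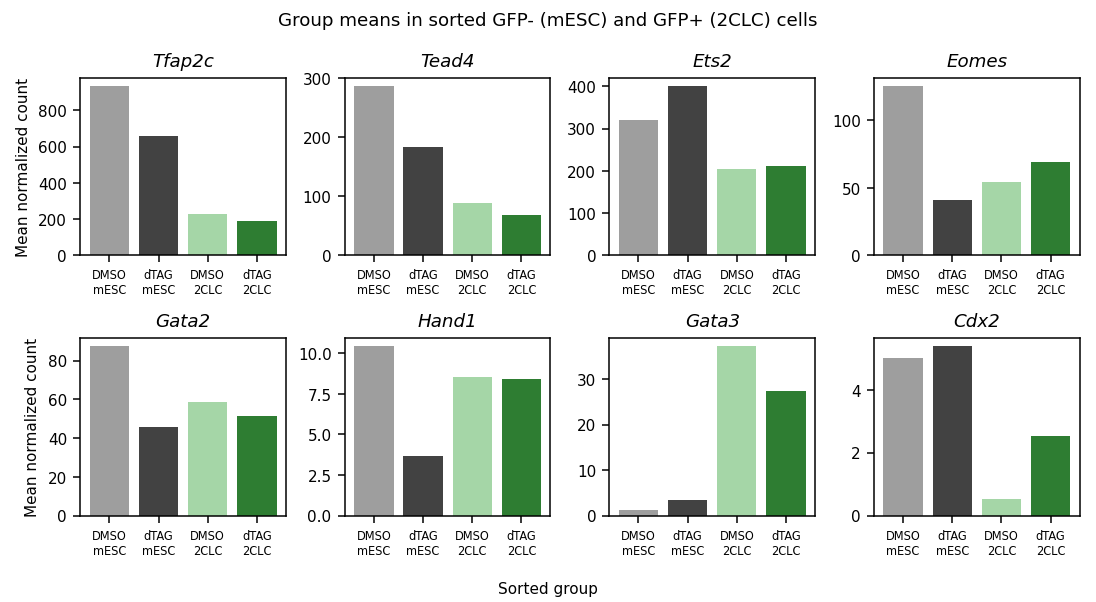
Authors' mean normalized counts of 8 genes in sorted cells, with a bar for each of DMSO mESC, dTAG mESC, DMSO 2CLC and dTAG 2CLC, all axes starting at 0 and differing in scale. No error bars can be drawn because only means are given. Gata3 is near 0 in mESC and at 37.2 and 27.3 in 2CLC, and Eomes is lowest in mESC with dTAG-13 (41.1).

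Means with dTAG-13 and with DMSO were also compared within each sorted population. In mESC, Eomes went from 125 to 41.1 normalized counts (log2 ratio -1.59) and Hand1 from 10.4 to 3.69 (-1.28). These were 2 of 6 members past 2-fold, where 8.51% of 17142 genes were, and Hand1 passed the minimum only through the DMSO group. In 2CLC 0 of 6 members were past 2-fold, where 9.03% of 18281 genes were, so nothing is read from this count. Eomes there went from 53.9 to 68.8 (0.35) and Hand1 from 8.51 to 8.41 (-0.01). With means scaled to the same sum these ratios were 0.11 and -0.23. Gata3 stood at 1.25 and 3.41 in mESC (0.97, below the minimum) and at 37.2 and 27.3 in 2CLC (-0.43).

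The difference of the effects, the log2 ratio of dTAG-13 over DMSO in 2CLC minus that in mESC, was 1.93 for Eomes, 1.27 for Hand1 and -1.40 for Gata3. These 3 of 7 members were past 2-fold, where 11.5% of 19051 genes were. Hand1 passed the minimum only through mESC with DMSO and Gata3 only through 2CLC, so nothing is read from this count. Gata2 (0.72), Tead4 (0.28), Tfap2c (0.24) and Ets2 (-0.27) were within it. Of these 3, only Eomes stayed past 2-fold with a pseudocount of 5, at 1.82, whereas Hand1 was at 0.82 and Gata3 at -0.81. Under the scaling to the same sum the difference turned from 0.24 to -0.01 for Tfap2c, and the effect of dTAG-13 in 2CLC turned from 0.05 to -0.19 for Ets2. With means alone, no interval or test of these differences can be given.

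Genes that work with these factors were split between 2CLC and mESC, where 26.4% of all genes were past 2-fold. Of 15 Hippo pathway genes, 3 were past 2-fold higher in 2CLC with DMSO, namely Amot, a junction protein that holds YAP outside the nucleus (34.2 in mESC and 287 in 2CLC), its relative Amotl2 (470.1 and 1219) and the kinase Lats2 (32.7 and 81.2). Another 2 were past 2-fold lower, among them Amotl1 (518 and 232). Among 15 other trophoblast stem cell factors, 4 were higher and 2 lower, with Msx2 at 8.08 and 90.1 and Sox21 at 144 and 39.8. In the 10 genes of the stem cell niche, the receptor Fgfr2 was higher (26.0 and 81.2) and its ligand Fgf4 lower (4029 and 1847), as was Acvr2b (237 and 96.2). Structural genes were split, with 3 of 12 higher, among them Cldn6 (147 and 893) and Krt18 (33.1 and 87.1), and 4 lower, among them Krt19 (34.5 and 9.28) and Krt7 (11.9 and 3.34). Medians were -0.08 for Hippo, 0.69 for the other factors, -0.62 for the niche and -0.21 for the structural genes, against -0.02 over all genes.

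Keratins were lower beside Eomes in mESC with dTAG-13. In mESC Krt8 (56.5 and 23.4), Krt18 (33.1 and 10.2), Krt19 (34.5 and 10.1) and Krt7 (11.9 and 5.19) were past 2-fold lower. These were 4 of the 11 structural genes that passed the minimum, where 8.51% of 17142 genes were past 2-fold. Krt7 passed the minimum only through the DMSO group, so nothing is read from this count. In 2CLC 0 of 10 were lower, and Tinagl1, a secreted matrix protein, was higher (41.7 and 90.0), where 9.03% of 18281 genes were past 2-fold. Among factors, Dlx3 (18.4 and 2.54) and Ascl2 (38.6 and 13.1) were lower in mESC with dTAG-13 and Cited2 (406 and 915) was higher.

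Other cell types moved with the gate and the treatment. The summed markers of 2-cell-like cells were at 767 in mESC with DMSO and 10153 in mESC with dTAG-13. Summed feeder markers were 407 (DMSO) and 723 (dTAG-13) in mESC and 970 and 1641 in 2CLC, and 4 of the 6 that passed the minimum were past 2-fold higher with dTAG-13 in each population. Endoderm markers, a list that holds the Gata3 relatives Gata4 and Gata6, summed to 173 and 201 in mESC and to 398 and 533 in 2CLC, and Sox17 was at 9.36 in mESC and 85.8 in 2CLC with DMSO. Mesoderm markers summed to between 45.2 and 63.5 in the 4 groups. The part of these cells in the values of Gata3 and Eomes was not tested.

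In the replicated experiment the largest difference of any member was that of Hand1 between Dppa4 KO and WT cells. In WT cells with DMSO Hand1 stood at 17.5, 102 and 119 normalized counts in replicates 1, 2 and 3, and with UNC0638 at 9.69, 111 and 106. In KO cells it was at 0, 2.04 and 0 with DMSO and at 1.84, 0 and 0 with UNC0638. No KO library reached a WT library, and replicate 1 was the low WT library in both treatments.

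Hand1 was called in both comparisons, where a call needs an adjusted p under 0.05 and a log2 difference of at least 1. With DMSO the log2 difference of KO from WT was -5.40 (SE 0.97, limma, adjusted p = 0.00439), and with UNC0638 it was -5.16 (SE 0.97, adjusted p = 0.00736). The KO groups held 2 Hand1 reads each. The ratio of WT to KO was 119 with DMSO, with an interval of 32.6 to 989 that covers counting error only. The call with UNC0638 was lost without WT replicate 2 (adjusted p = 0.064) or WT replicate 3 (0.055), while the one with DMSO was kept whichever single library was left out.

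Cdx2, the factor that fixes trophectoderm identity, was low and lower still in KO cells. It was at 9.31, 20.9 and 13.1 normalized counts in WT with DMSO, at 16.7, 19.6 and 24.8 in WT with UNC0638, at 4.89, 5.09 and 0 in KO with DMSO, and at 1.84, 0 and 1.75 in KO with UNC0638. The KO libraries lay below all WT libraries. With UNC0638 the log2 difference was -3.41 (SE 0.82, limma, adjusted p = 0.0272), a call, on 71 reads in WT and 4 in KO. With DMSO it was -2.16 (SE 0.82, adjusted p = 0.121), which missed the threshold. The call was lost without WT replicate 1, 2 or 3 (adjusted p = 0.064, 0.11 and 0.11) or KO replicate 2 (0.069), and Cdx2 is not tested when at least 50 reads are required.

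Of the 7 members that passed the filter of 10 reads in 3 libraries, 1 was called lower between KO and WT with DMSO and 2 with UNC0638, where 4.39% and 3.27% of 17445 genes were called. Hand1 and Cdx2 passed that filter only through WT libraries, so nothing is read from these counts. None was called higher. Gata3 and Elf5 did not pass the filter.

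Tead4 pointed the other way from Hand1 and Cdx2. With DMSO it was at 377, 188 and 164 normalized counts in WT and at 598, 481 and 412 in KO, so the groups did not overlap. The log2 difference was 1.11 (SE 0.38, limma, adjusted p = 0.0888) and missed the threshold. It passed when only these groups were fitted (adjusted p = 0.032) and without WT replicate 1 (0.034). Without WT replicate 2, WT replicate 3 or KO replicate 1 the log2 difference was 0.98, 0.88 and 0.97 (limma, adjusted p = 0.25, 0.26 and 0.26), and 0.26 was the highest adjusted p over the alternatives. With UNC0638 Tead4 was at 302, 187 and 113 in WT and at 487, 255 and 192 in KO (log2 difference 0.63, SE 0.38), and the groups overlapped.

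Gata2 was at 58.2, 52.9 and 28.0 in WT and 8.81, 35.7 and 15.1 in KO with DMSO, with overlap between replicates. Its log2 difference of -1.33 (SE 0.48, limma, adjusted p = 0.103) was not called, though it was without KO replicate 2 (-1.85, adjusted p = 0.042). Tfap2c differed by -0.14 (interval -1.09 to 0.82), Ets2 by 0.44 (-0.15 to 1.03) and Eomes by 0.21 (-0.47 to 0.88) between KO and WT with DMSO, and none was called.

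**Figure D4:**
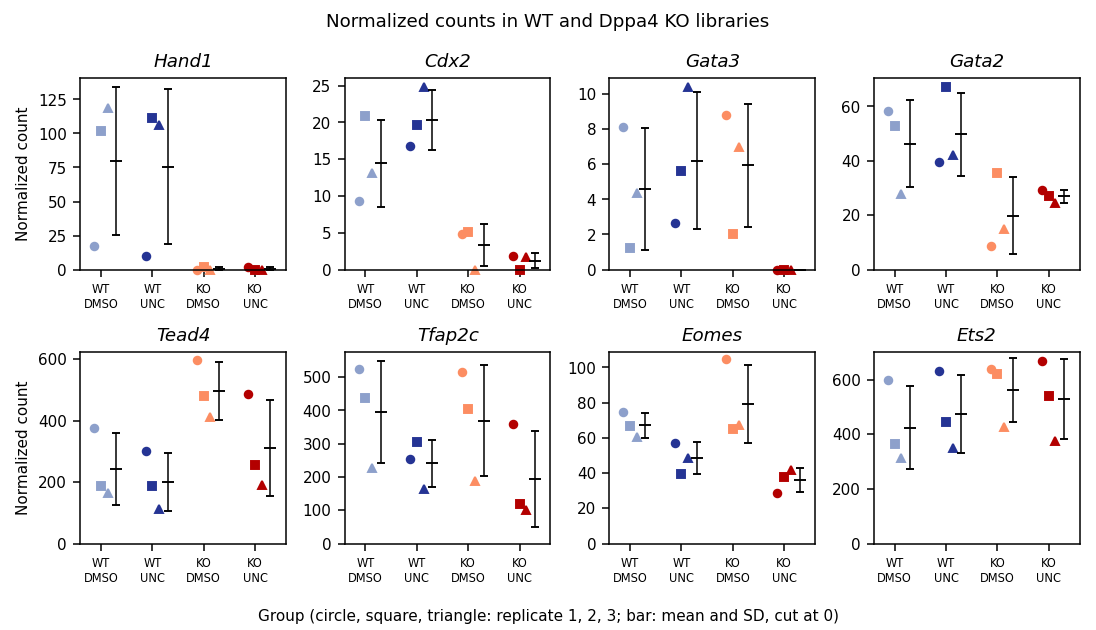
Normalized counts of 8 genes in each of the 12 libraries of WT and Dppa4 KO cells with DMSO or UNC0638, with circles, squares and triangles for replicates 1, 2 and 3 and bars for the mean and SD of 3. Hand1 lies between 9.69 and 119 in WT and at 2.04 or below in KO, and Cdx2 is at 9.31 or above in WT and at 5.09 or below in KO.

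UNC0638 moved no member past the threshold. In WT cells 0 of 7 were called, where 0% of 17445 genes were called by limma, 1528 had an unadjusted p under 0.05, edgeR called 0 and DESeq2 called 14. With replicate number as a block and only WT libraries fitted, an alternative chosen after seeing the data, 188 genes were called and again 0 members. In KO cells 0 of 7 were called, where 0.493% of genes were. The 95% intervals in WT, on the log2 scale, ran from -1.15 to 0.20 for Eomes and from -1.63 to 0.29 for Tfap2c. They ran from -1.09 to 0.51 for Tead4 and from -0.42 to 0.77 for Ets2. Those of Gata2 (-0.88 to 1.14), Cdx2 (-1.21 to 2.26) and Hand1 (-2.32 to 1.77) were wider. Effects of about 2-fold on any of these genes but Ets2 therefore cannot be told from none.

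Eomes came closest to a call. It was at 105, 65.2 and 67.3 in KO with DMSO and at 28.5, 37.6 and 41.9 in KO with UNC0638, without overlap. The log2 difference was -1.10 (SE 0.32, limma, adjusted p = 0.114), and DESeq2 called it (-1.14, adjusted p = 0.036). The adjusted p was 0.37 with only the groups compared, and without KO replicate 1 with DMSO the difference was -0.88 (limma, adjusted p = 0.36). In WT cells Eomes stood at 74.5, 66.4 and 60.3 with DMSO and at 57.2, 39.2 and 48.7 with UNC0638 (log2 difference -0.47, SE 0.32). Tfap2c had a log2 difference of -1.05 (SE 0.45) in KO and -0.67 (SE 0.45) in WT. The response to UNC0638 did not differ past the threshold between the genotypes for any member, where 0% of genes were, with 1088 genes at an unadjusted p under 0.05 and 0 called by edgeR and by DESeq2.

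Gata3, which is high in 2CLC, was too low to test. It had 7, 1 and 5 reads in WT with DMSO, 3, 6 and 13 in WT with UNC0638, 9, 2 and 6 in KO with DMSO and 0 in all 3 KO libraries with UNC0638. Taking the last group as 3 reads in all, WT cells with UNC0638 were at least 6.71-fold higher, and the counting interval of the ratio, which covers counting error only, starts at 5.01. Elf5 had 0 to 9 reads in every library.

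**Figure D5:**
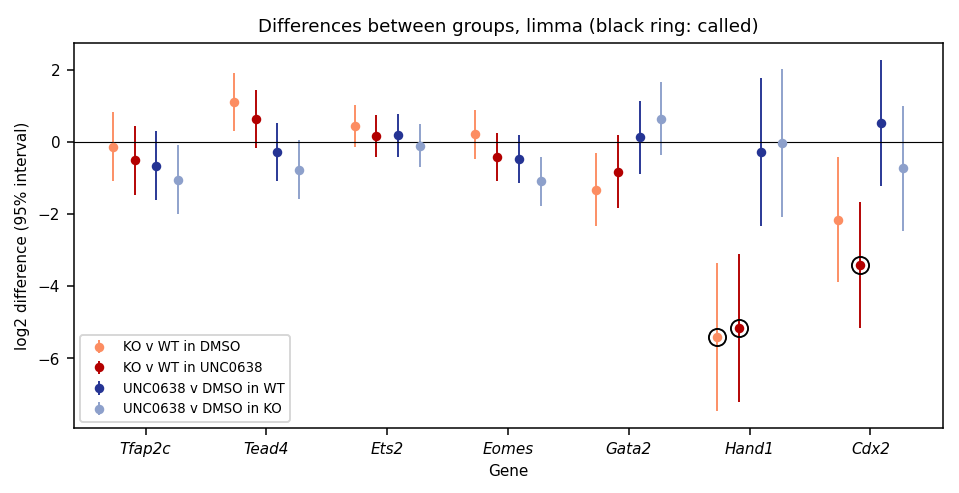
Log2 differences with 95% intervals from limma for the 7 genes that passed the filter, for KO against WT with DMSO and with UNC0638 and for UNC0638 against DMSO in WT and in KO. Black rings mark calls. Hand1 at -5.40 and -5.16 and Cdx2 at -3.41 carry the rings, and the UNC0638 intervals of Hand1 and Cdx2 include 0.

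Calls in the wider trophoblast lists between KO and WT are to be read against all 17445 genes tested. Of these 4.39% were called with DMSO and 3.27% with UNC0638. With DMSO, 0 of 6 tested placental genes, 0 of 12 structural genes and 0 of 15 Hippo genes were called. Of 13 other stem cell factors, the transcriptional co-activator Cited1 was lower at -3.39 (SE 0.85, limma, adjusted p = 0.0261). In the niche list Fgfr2 was lower at -1.31 (adjusted p = 0.0432) and the proprotein convertase Pcsk6 higher at 1.16 (adjusted p = 0.00582). With UNC0638, 1 of 6 tested placental genes was called, Peg10, lower at -1.30 (limma, adjusted p = 0.00705). Of 12 structural genes 2 were lower, Krt18 at -2.54 (limma, adjusted p = 0.0425) and Cldn6 at -1.09 (adjusted p = 0.0384). The lectin Lgals3 of that list was higher at 1.34 (limma, adjusted p = 0.00575). No Hippo gene, niche gene or other stem cell factor was called with UNC0638. Medians of the 6 tested placental genes were -0.75 and -1.42, against -0.03 and -0.04 over all genes tested.

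Markers of other cells and of naive pluripotency differed between the genotypes as well. Summed naive pluripotency markers were between 44004 and 60546 in WT and between 64508 and 65988 in KO with DMSO. With UNC0638 they were between 42939 and 51484 in WT and between 55384 and 59992 in KO. Of 8 tested, 2 were called higher in KO with DMSO and 0 with UNC0638, where 4.39% and 3.27% of genes were called. These were Klf4 at 1.01 (limma, adjusted p = 0.00249) and Tbx3 at 1.43 (adjusted p = 0.0244). Summed feeder markers were between 1872 and 2852 in the 6 WT libraries and between 1132 and 1754 in the 6 KO libraries, with 0 of 6 tested markers called in either comparison. Summed mesoderm markers, a lineage that also uses Hand1, were between 17.5 and 57.9 in WT and between 10.2 and 34.1 in KO, with 4 of 8 at 0 in KO with DMSO. The summed markers of 2-cell-like cells were between 93.1 and 6339 in WT and between 0 and 3.5 in KO. WT replicate 1, low in Hand1, had the lowest 2-cell-like sum in each treatment (93.1 and 762.5). Its summed level of placental genes was also lowest (4011 and 3979 against 5874 to 6791). Replicate 1 was the highest WT library in Tead4, Ets2 and summed naive pluripotency markers in each treatment. In WT replicates 2 and 3 the 2-cell-like sums were 348 and 1510 with DMSO and 1059 and 6339 with UNC0638. Hand1 was there at 102 and 119 with DMSO and at 111 and 106 with UNC0638. The part of these cells in the Hand1, Cdx2 and Tead4 values was not tested.

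Across the 15 groups, centred within each table, the genes whose pattern was most like that of a member were found for the 6 members with an overall mean of at least 10. Pearson's r, a description over 15 points that share libraries and size factors, was 0.954 between Tfap2c and Hip1, 0.960 between Tead4 and Gm13889, 0.973 between Ets2 and Mobp, 0.953 between Hand1 and Tex10, 0.909 between Eomes and Mpnd and 0.852 between Gata2 and Nr1d1. The pattern of Hand1 rests on the 7 d and WT groups, where it was high. Cdx2, Gata3 and Elf5 were below that mean.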

How the data were processed

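The members and gene lists were chosen with earlier results of these data known. Per the study's methods and processing notes, the authors trimmed reads with Trim Galore 0.6.7 and aligned them to mm10 with STAR 2.7.10 without introns, placing multi-mapping reads once at random. They counted genes with TEcounts and divided counts by DESeq2 1.34.0 size factors. The deposited signal columns hold these normalized counts, as group means (time course, washout, sorting) or per library (Dppa4 experiment). Deposited columns of log2 fold change, score (Wald statistic) and p-value hold the authors' own comparisons and were not used. No strand setting is given in the sources used here.

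Whole reads were recovered in 100% of Dppa4 values. Genes with at least 10 reads in at least 3 libraries (17445) were fitted with limma 3.58.1 (R 4.3.3, trend) on log2(normalized count + 1) in 1 model of 4 groups with Benjamini-Hochberg adjustment. A fold on this scale understates changes of low genes. edgeR 4.0.16, DESeq2 1.42.0, TMM scaling, other pseudocounts and filters, a replicate block and omission of each library were alternatives. In libraries simulated at dispersion 0.15 over 17445 genes, 59.5% of 200 genes changed 4-fold were found for UNC0638 v DMSO in WT, 54% for that in KO and 62.5% for KO v WT in DMSO.

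Named genes were all 9 members, at most 4 genes of a list per comparison with the largest log2 difference, and the gene most like each member of the 3 ranked, with Ehmt2 and Dppa4 as checks. One list gene that this rule would name is not reported here. Same-numbered WT libraries deviated together (r = 0.247, 0.105 and 0.431) and KO libraries did not (0.156, -0.0805 and 0.00792), so the block was read within WT. Between genotypes same-numbered libraries correlated at -0.0847 to 0.125 and share only a number. Coordinates are those of GENCODE on GRCm38. Per the study's methods the sorted reporter cells received each treatment in triplicate. p-values measure the spread between these libraries.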

Additional observations from a re-analysis of the deposited data

How the results depend on the processing

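Under DESeq2 the members called for UNC0638 v DMSO in KO rose from 0 to 1 (Eomes), and leaving out single libraries gave 0 to 1. With a replicate block, whose numbers do not pair KO with WT libraries, 2 members were called between KO and WT with DMSO (Tead4 added, adjusted p = 0.0032), as with only the groups compared, and leaving out single libraries gave 1 to 2. For KO v WT with UNC0638, a filter of 50 reads left 1 call and leaving out single libraries gave 0 to 2. The block changed no other member call, and with only the KO groups and the block Eomes had an adjusted p of 0.46 (limma). Genes called moved with the setting: DESeq2 called 14, 287, 1079 and 871 in the 4 contrasts against 0, 86, 765 and 570 by limma, and the block 0, 170, 1024 and 766.

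For the group means, dropping the minimum gave 5 members past 2-fold at 24 h, 1 at 15 d, 2 for Recovery v dTAG-13, 1 for dTAG-13 in 2CLC, 5 for 2CLC v mESC with dTAG-13 and 5 for the difference of effects. A minimum mean of 50 left 1 at 7 d, 0 for Recovery v dTAG-13, 1 for dTAG-13 in mESC and 1 for the difference of effects. A pseudocount of 5 left 1 for dTAG-13 in mESC and 1 for the difference of effects. At 1.5-fold there were 2 at 15 d, 1 for Recovery v DMSO, 3 for Recovery v dTAG-13, 4 for dTAG-13 in mESC and 5 for 2CLC v mESC with dTAG-13. For 22 single-gene results, 258 values under alternatives were tallied. These results were chosen Dppa4 contrasts and group-mean genes already past 2-fold. Of the 258 values, 241 kept direction and side of the threshold, 12 were no longer past it, 5 were newly past it and 0 reversed. Group-mean genes within 2-fold and the differences of effects were left out, so the tally misses the turns of Tfap2c and Ets2 under scaling. Only Dppa4 contrasts could be newly past the threshold. Apart from the filters and thresholds themselves, the causes were not tested. Depth limits Gata3, Cdx2 and Elf5, and for group means no error is known.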
